A study of Mus musculus with 15 samples.

Results

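MiR-448 (mmu-miR-448 in the tables) was 1 of 584 miRNA assays measured by high-throughput TaqMan quantitative RT-PCR in 15 samples of mouse pancreatic endocrine cell lines, and its assay was taken from the deposited tables by name, any arm suffix allowed, which found 1 assay in 1 well. The cell lines were αTC1-6, a glucagon-producing α cell line, and βTC1, an insulin-producing β cell line; both come from tumors of transgenic mice in which the SV40 large T antigen was driven by a hormone gene promoter, so they are proliferating, transformed lines rather than islet cells. Untreated αTC1-6 cells were collected at 24 h and 48 h, αTC1-6 cells exposed to a mixture of the cytokines IL1b, at 50 IU/ml, and IFNg and TNFa, each at 1000 IU/ml, were collected 24 h and 48 h post treatment (PT), and untreated βTC1 cells at 24 h, with 3 replicates in each of these 5 groups. No sample of treated βTC1 was analysed here. MiR-448 was chosen by values described here, a threshold cycle (Ct) after 48 h of cytokines and none without them, so its levels in the cytokine comparisons are given as a description, with no test.

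MiRNAs are short RNAs that are cut from a hairpin precursor, loaded into Argonaute proteins and pair with messenger RNAs mostly through bases 2 to 8, the seed, lowering the stability or translation of their targets. The gene for miR-448 is an intronic miRNA gene within Htr2c, which encodes the serotonin receptor 2C and is best known for its expression in neurons. Inflammatory cytokines such as those used here are released around islet endocrine cells during insulitis, and the study asked which miRNAs of α cells change on exposure to them.

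In the mouse reference (RefSeq, GRCm38.p6) the hairpin lies at chrX:147158210-147158321 on the plus strand. It is shown here because the deposited assay name gives no arm, so that either mature product could be the one measured. The capitals mark the mature arms, at bases 12 to 33 and 72 to 93 of the hairpin.
mmu-mir-448 hairpin: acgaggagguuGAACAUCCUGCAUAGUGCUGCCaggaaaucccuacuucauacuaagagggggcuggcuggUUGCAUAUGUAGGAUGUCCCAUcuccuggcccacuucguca

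The mature sequences follow, with the seed in capitals, together with those of miR-764, the other miRNA of the same host gene that was on the cards.
mmu-miR-448-5p: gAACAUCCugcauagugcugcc
mmu-miR-448-3p: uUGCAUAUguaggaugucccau
mmu-miR-764-5p: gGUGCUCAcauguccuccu
mmu-miR-764-3p: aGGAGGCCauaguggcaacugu
Among the 1738 mature mouse miRNAs of the RefSeq table, no other sequence had the seed of either arm of miR-448. There was therefore no seed relative on the cards to set beside it.

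The miRNAs were read on 2 cards, with 375 miRNA assays on card A, which held miR-448, and 209 on card B. The Ct is the PCR cycle at which the fluorescence crosses its threshold, so that a lower Ct means more template and 1 cycle stands for a doubling. A well that never crossed it was undetermined, and the authors entered it at a Ct of 40. MiR-375, the islet endocrine miRNA, had a Ct between 13.4 and 16.0 in all 15 samples, and miR-7a and miR-7b had a Ct in each of the 14 samples in which they were read. The neuronal miR-9, miR-124 and miR-137, which endocrine cells also make, had a Ct in all 15 samples, from 18.0 to 26.0. Markers of other tissues had higher Ct values. The liver miR-122 had a Ct in 8 samples, among them all 6 collected at 48 h, the erythroid miR-451 in 11 and miR-486 in 1. The leukocyte miR-142-3p and miR-223 had a Ct of 29.9 or more in all 15 samples and miR-142-5p a Ct in 4, and of the muscle miRNAs miR-206 had a Ct in 15, miR-133a in 13 and miR-1 in 5 of 13 samples read with the mouse assay and 11 of 12 read with the rat assay. Of the card A miRNAs, 304 to 324 had a Ct in the untreated and 321 to 337 in the cytokine-treated αTC1-6 samples of 48 h, against 214 to 276 in the 9 samples of 24 h. In the non-normalized table these ranges overlapped, with 308 to 348 at 24 h and 316 to 338 at 48 h. Each sample is a whole culture, so a higher level per cell and more cells that carry the miRNA cannot be told apart.

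MiR-448 had a Ct in all 3 αTC1-6 samples treated with cytokines for 48 h and in none of the other 12 samples. The Ct was 26.0 in treated replicate 1, 23.1 in replicate 2 and 26.6 in replicate 3, a mean of 25.2 ± 1.86 cycles (SD, n = 3). Replicate 2 was the highest of the 3 treated samples in level. All 3 untreated αTC1-6 samples of 48 h were undetermined, so the groups of 48 h did not overlap. All 3 untreated and all 3 treated αTC1-6 samples of 24 h were undetermined as well, and so were the 3 βTC1 samples. The non-normalized table of Ct values gave the same result for miR-448 in each of the 15 samples. There, 59 to 85 further card A miRNAs per sample of 24 h had a Ct that the normalized table lists as undetermined, and 0 or 1 per sample of 48 h. MiR-448 was not among them.

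**Figure D1:**
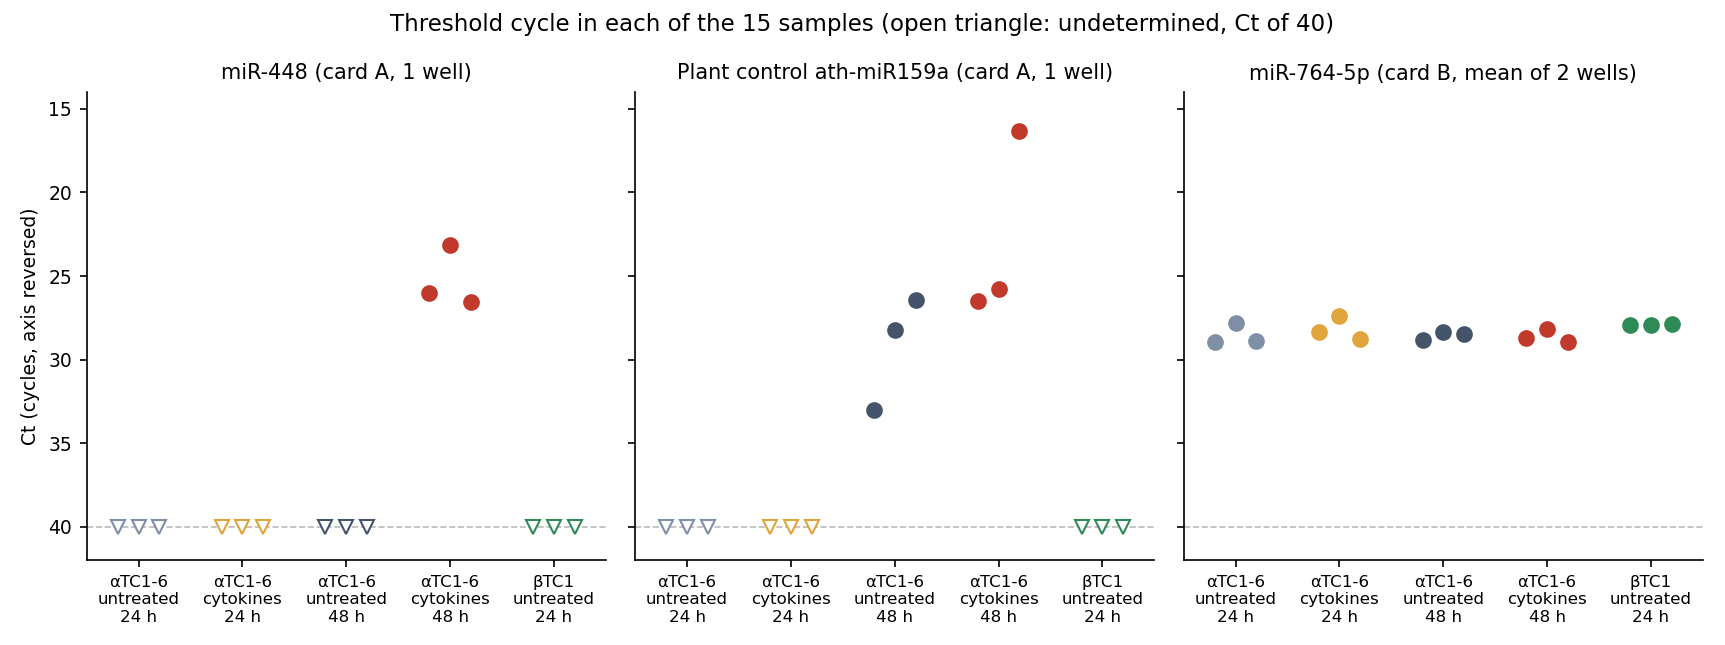
Ct, in cycles on a reversed axis, of miR-448, of the plant control ath-miR159a on the same card and of miR-764-5p in each of the 15 samples; each filled point is 1 sample and each open triangle an undetermined well at a Ct of 40. MiR-448 has a Ct in the 3 cytokine-treated αTC1-6 samples of 48 h only, the plant control in all 6 samples of 48 h, and miR-764-5p in all 15.

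The authors expressed each level as ΔCt, the Ct minus that of miR-26a in the same sample, a log2 scale on which a higher value is a lower level. The ΔCt of miR-448 in the treated samples of 48 h was 7.51, 5.41 and 9.14, a mean of 7.35 ± 1.87 (SD, n = 3). These values correspond to 0.548%, 2.35% and 0.177% of the miR-26a level, so that the highest and the lowest treated sample differed 13.3-fold. The order of the 3 samples was kept relative to U6 and the small nucleolar RNAs, with ΔCt values of 9.35, 6.96 and 11.48. In the 12 undetermined samples the ΔCt lay between 21.0 and 23.0, but these numbers only restate how far the Ct of miR-26a lay below 40 and are no levels.

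On the log2 scale the treated mean at 48 h was 14.68 above the untreated mean with the undetermined wells at a Ct of 40. This is a lower bound only if those wells held no more template than a Ct of 40 stands for. Duplicate wells on card B, described below, did not always agree on whether a Ct was present. Within the 3 pairs of samples that share a replicate number, the difference was 13.51, 17.62 and 12.91. With undetermined wells at a Ct of 35 in place of 40 the mean difference fell to 9.68, so that its size rests on the value given to wells without a Ct. Without any normalization it was 14.77, whereas the 534 miRNAs compared at 48 h had a median difference of -0.51 with miR-26a as the reference and of 0.04 with U6 and the small nucleolar RNAs. With undetermined wells at a Ct of 40, the difference of miR-448 was the largest above 0 of the 534. These passed a minimum of 3 Ct values in the 6 samples, which miR-448 met through its treated samples alone. The rank describes values by which miR-448 was chosen, and it was not computed with those wells at a Ct of 35. The next largest above 0 was 13.13, for miR-293, and among the 410 with a Ct in all 6 samples it was 5.51, for miR-320. In treated replicate 3 the Ct of miR-293 was 8 and that of miR-320 was 6.38. In treated replicates 1 and 2 the Ct was 33.9 and 25.2 for miR-293, and 23.4 and 24.0 for miR-320. In the opposite direction the difference of miR-220 was greater in size, at -19.15 with its treated wells at a Ct of 40, and the lowest with a Ct in all 6 samples was -8.09, for miR-743b-5p. In treated replicates 1, 2 and 3 the Ct of miR-743b-5p was 29.8, 36.8 and 29.8. Its mean ΔCt was 14.24 in the treated and 6.15 in the untreated samples, whose separate Ct values are not given here. These miRNAs are named for their rank. No difference or fold could be given at 24 h, or between αTC1-6 and βTC1, because neither group had a Ct.

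**Figure D2:**
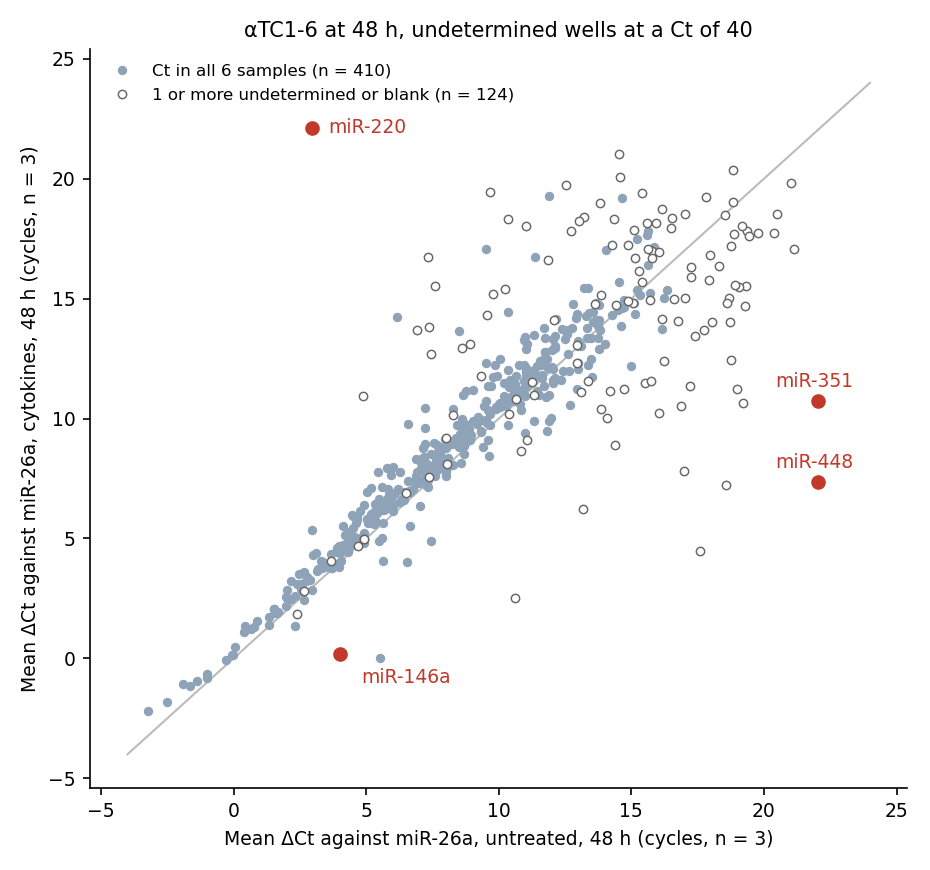
Mean ΔCt against miR-26a in untreated and cytokine-treated αTC1-6 at 48 h (cycles, n = 3 samples each, fewer where a well was blank; higher is less RNA), with 1 point per miRNA for the 534 compared and the line of equal values. MiR-448 and miR-351 lie at the right edge, where all untreated wells were undetermined, miR-220 lies far above the line, and miR-146a has a Ct in all 6 samples.

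Where it was detected, miR-448 had a Ct near the median of its card in treated replicates 1 and 3 and well below it in replicate 2. In treated replicate 1, 135 of the 321 card A miRNAs with a Ct (42.1%) had a lower Ct than miR-448. The figure was 89 of 337 (26.4%) in replicate 2 and 168 of 328 (51.2%) in replicate 3. The median Ct of these miRNAs was 27.0, 26.9 and 26.2, which places miR-448 above the median level of its card in replicates 1 and 2 and below it in replicate 3. Different assays amplify with different efficiency, so these ranks describe Ct values and not amounts of RNA.

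**Figure D3:**
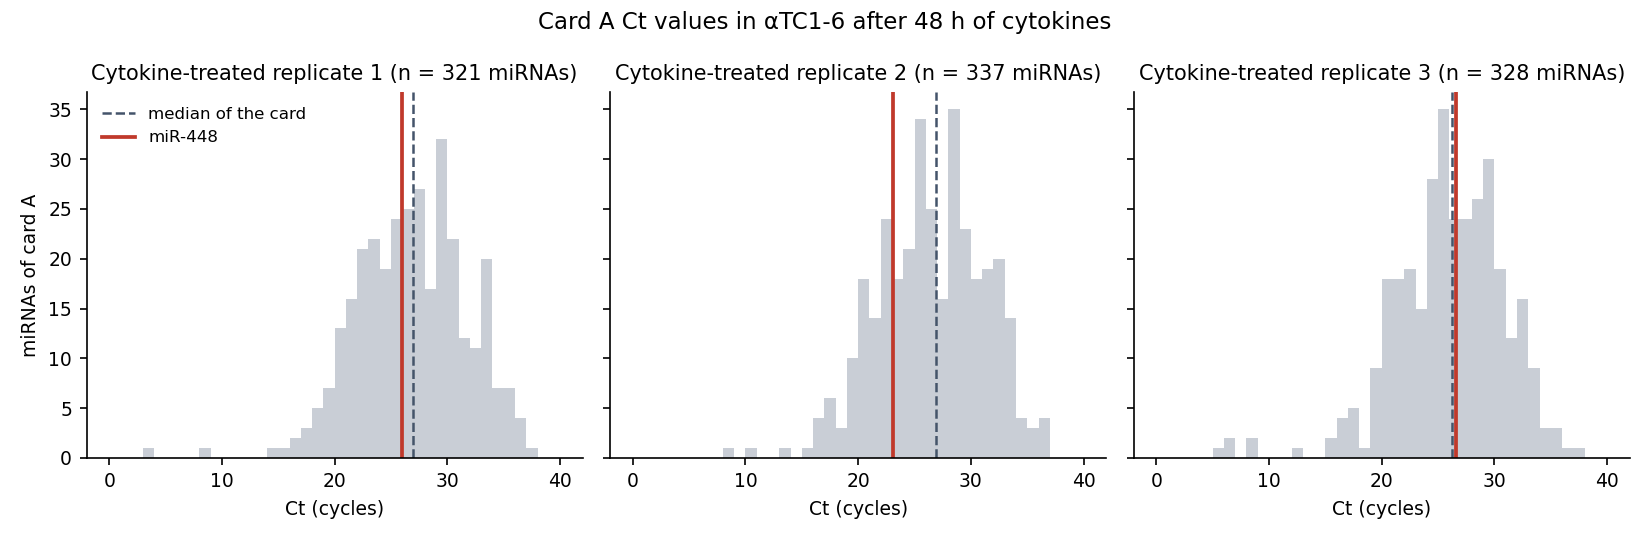
Number of card A miRNAs per cycle of Ct in each αTC1-6 sample treated with cytokines for 48 h, with the Ct of miR-448 as a solid line and the median of the miRNAs with a Ct as a dashed line. The Ct of miR-448 is below the median in replicates 1 and 2 and just above it in replicate 3.

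The treated replicates of miR-448 were more spread than those of most miRNAs. Its SD of 1.87 cycles compared with a median SD of 0.646 over the 453 miRNAs that had a Ct in all 3 treated samples of 48 h, and 51 of the 453 (11.3%) had a larger SD. Among the 76 miRNAs with a mean Ct within 1 cycle of that of miR-448, the median SD was 0.544 and 2 (2.63%) had a larger SD. Both sets span cards A and B, and the levels of duplicated card B assays are means of wells, whereas miR-448 had 1 well. As a single well was read per sample, the spread of the assay and the spread between cultures cannot be told apart.

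**Figure D4:**
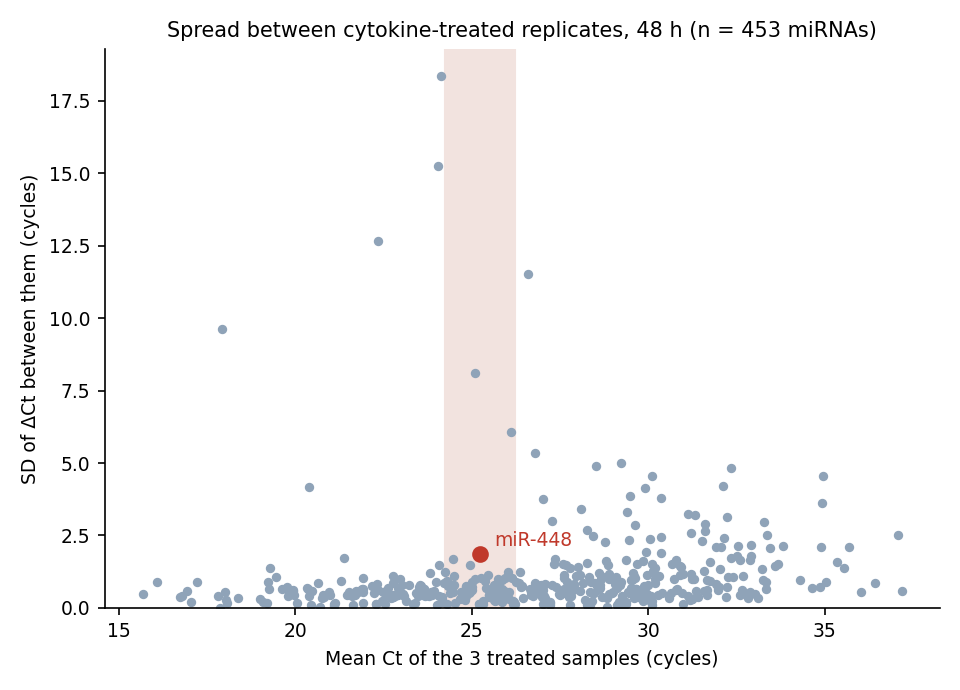
SD of ΔCt between the 3 αTC1-6 samples treated with cytokines for 48 h against their mean Ct, both in cycles, with 1 point for each of the 453 miRNAs with a Ct in all 3; the band spans 1 cycle on either side of miR-448. The points are from both cards. MiR-448, at 1.87, lies above most miRNAs of similar Ct.

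Few miRNAs switched from undetermined to detected between groups. At 48 h, 2 of the 560 miRNAs read in all 6 samples (0.357%) had a Ct in all 3 treated and in no untreated αTC1-6 sample, miR-448 and miR-351, a member of the X-linked miR-322/miR-503 cluster. MiR-351 had a Ct of 29.4, 29.5 and 26.9 in the treated samples, each higher than that of miR-448 in the same sample, and a Ct in 1 βTC1 sample. In the opposite direction 1 of 560 (0.179%) switched, miR-220, with a Ct of 9.42, 25.9 and 27.4 in the untreated samples. The first of these values lies far below the range of the other 2.

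At 24 h the same pattern held for 1 of 507 miRNAs in each direction (0.197% and 0.197%), and miR-448 was neither of them. MiR-292-5p, of a cluster known from embryonic stem cells, had a Ct of 32.5, 12.8 and 34.9 in the treated samples of 24 h. MiR-380-3p, of the imprinted Dlk1-Dio3 cluster, had a Ct of 33.1, 30.9 and 31.0 in the untreated samples of 24 h, but the non-normalized table also gave it a Ct in all 3 treated samples. Patterns that fell short only by a Ct in 1 sample of the other group were more frequent than full ones at 48 h. There, 8 miRNAs had a Ct in all treated and 1 untreated sample, and 7 had a Ct in all untreated and 1 treated sample. Patterns that lacked a Ct in 1 sample of the detected group were not counted here.

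Over the whole series in the normalized table, 9 miRNAs had a Ct in exactly 3 of 15 samples, and in 3 of the 9 those samples formed a group. Besides miR-448 these were miR-217, in βTC1 with Ct values from 24.5 to 27.0, and miR-220, in untreated αTC1-6 of 48 h. The other 6 had their Ct values spread over at least 2 groups. The same count was not made in the non-normalized table, in which more card A miRNAs had a Ct at 24 h.

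Likeness to miR-448 was ranked over the 15 samples of the normalized table. It went first by the number of samples in which a Ct was present for the one and absent for the other. Ties were ordered by the mean difference in Ct. The 5 miRNAs most like miR-448 were miR-675-3p, miR-675-5p, miR-125b-3p, miR-453 and miR-433*. Each of them was discordant with miR-448 in 2 samples. MiR-675-3p, made from the imprinted long noncoding RNA H19, had a Ct in all 3 treated samples of 48 h (30.9, 28.3 and 28.1) and also in 2 untreated samples of 48 h (27.3 and 30.7). MiR-675-5p, from the other arm of the same hairpin, had a Ct of 13.5 in treated replicate 2 and none elsewhere. MiR-125b-3p had a Ct of 32.8 in treated replicate 3 and miR-453 a Ct of 33.1 in treated replicate 1, each with none elsewhere. MiR-433* had a Ct of 35.8 and 26.3 in treated replicates 2 and 3 and of 27.7 in an untreated sample of 24 h. None of the 5 was detected in all treated and no untreated samples. Their values in the non-normalized table, in which more card A miRNAs had a Ct at 24 h, were not compared.

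Cards A and B each carried ath-miR159a, an Arabidopsis miRNA with no mouse counterpart that serves as a negative control. On card A of the normalized table it was undetermined in all 9 samples of 24 h and had a Ct in all 6 samples of 48 h. The Ct was 33.0, 28.2 and 26.4 in the untreated and 26.5, 25.8 and 16.3 in the treated αTC1-6 samples. Relative to miR-26a, the plant control lay 6.25 higher in the treated samples on the log2 scale, with ΔCt values of 8.02, 8.06 and -1.10 against 14.02, 11.24 and 8.47, so that the groups did not overlap. The exact two-sided permutation test gave p = 0.1 for this difference, the smallest p that 3 against 3 samples allow. On card B of the normalized table it had a Ct in 12 of the 15 samples. In the non-normalized table the card A control also had a Ct in 5 of the 9 samples of 24 h.

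The Ct of miR-448 was 0.51 cycles below that of the plant control on the same card in treated replicate 1 and 2.65 cycles below it in replicate 2. In replicate 3 it was 10.24 cycles above it. The negative control thus had a Ct in all 3 samples in which miR-448 was detected, and it also had a Ct in the untreated samples of 48 h, in which miR-448 had none. Whether the signal in the plant control and the Ct values of miR-448 share a source was not tested.

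MiR-448 had a single well per sample, so whether a second well would have shown the same could not be read. Card B offers a measure of how far wells agree, with 150 miRNA assays in duplicate. Of 1966 pairs of duplicate wells in which at least 1 had a Ct, 266 (13.5%) had a Ct in only 1 of the wells. This share was 14.1% in the treated and 12.0% in the untreated αTC1-6 samples of 48 h. The lone Ct had a median of 28.5, and in 105 of the 266 pairs it was 26.6, the highest Ct of miR-448, or lower.

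MiR-764 is the other miRNA of Htr2c that was assayed. The RefSeq table lists 7 miRNA genes within the bounds of Htr2c (chrX:146962464-147197277), and those of miR-764 and miR-448, 155.8 kb apart, were the 2 with an assay. MiR-764-5p had a Ct between 27.2 and 29.0 cycles in both wells of all 15 samples, whereas miR-448 was detected in 3. Its ΔCt at 48 h was 10.59 ± 0.782 in the untreated and 10.74 ± 0.696 in the treated αTC1-6 samples (SD, n = 3), and the values overlapped. Its log2 difference was -0.16 (SE 0.592, adjusted p = 0.847, limma), with a sign that depended on the normalization, as it ranged from -0.56 to 0.40 over the alternatives. At 24 h the log2 difference was 0.58 (SE 0.583, adjusted p = 0.949), and between untreated αTC1-6 and βTC1 it was -0.79 (SE 0.566, adjusted p = 0.495). For comparison, limma called 3 of 534 miRNAs at 48 h (0.562%), 1 of 445 at 24 h (0.225%) and 142 of 480 between the lines (29.6%). With the replicate number as a block, it called 0 at 48 h and 0 at 24 h (121 and 47 at an unadjusted p under 0.05) and 115 between the lines. MiR-764-3p was sporadic, with a Ct in 2 treated and 1 untreated sample of 48 h, each time in only 1 of its 2 wells. Averaged with the other well at 40, it did not pass the test there (log2 difference 1.15, SE 3.59, adjusted p = 0.817, limma).

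MiRNAs known to respond to inflammatory signals in many cell types were read in the same samples, as 7 assays for miR-146a, miR-146b, miR-155, miR-21 and miR-34a and the opposite arms on the cards. Of the 6 that could be tested, 1 passed at 48 h, against 3 of all 534 miRNAs (0.562%). At 24 h 0 of the 6 passed, against 1 of all 445 (0.225%), where 20 of the 445 had an unadjusted p under 0.05. The one that passed was miR-146a, a target of NF-κB that dampens signalling downstream of IL-1 receptors, with a ΔCt of 0.28, 0.29 and -0.03 in the treated and 3.99, 3.98 and 4.03 in the untreated samples of 48 h, which did not overlap. It rose by 3.82 on the log2 scale (SE 0.268, adjusted p = 0.00458, limma). Its adjusted p was 0.0744 with the replicate number as a block, 0.0744 without treated replicate 2 and 0.0844 without treated replicate 3. It thus had a Ct in every sample compared, and its treated replicates lay within 1 cycle of each other, whereas those of miR-448 spread over 13.3-fold.

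The median log2 difference of these 6 assays was 1.14 at 48 h, with 5 of the 6 above 0, and 1.27 at 24 h, with 6 of the 6 above 0, against -0.51 and -0.15 over all miRNAs tested. At 24 h the log2 difference of miR-146a was 3.30 (SE 0.485, adjusted p = 0.0985, limma), and its treated and untreated samples did not overlap. Its adjusted p there was 0.313 with the replicate number as a block. MiR-448 had no Ct in any of these treated samples of 24 h. At 48 h the difference was 1.13 for miR-34a (adjusted p = 0.488), 1.18 for miR-155 (adjusted p = 0.664), 0.96 for miR-21 (adjusted p = 0.684) and -0.76 for miR-146b* (adjusted p = 0.382). In the same order, the adjusted p from limma with the replicate number as a block was 0.264, 0.244, 0.232 and 0.289.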

How the data were processed

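Total RNA was reverse transcribed with Megaplex primer pools, preamplified and run on TaqMan low density array cards A and B. The authors deposited 3 tables: Ct values, ΔCt values relative to miR-26a (a log2 scale, with undetermined wells at a Ct of 40), and the authors' own fold changes between groups, which were not used. Per the labels, samples were mapped to 5 groups of 3, which the study's methods describe as independent biological replicates. In the Ct table, the repeated wells of all 150 duplicated card B assays are identical, so levels were taken from the ΔCt table.

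Ct values were rebuilt as ΔCt plus the Ct of miR-26a, with values within 0.01 cycles of 40 read as undetermined. Duplicate wells were averaged. Limma 3.58.1 (R 4.3.3) was run on -ΔCt for the 6 samples compared, two-sided, over miRNAs with at least 3 Ct values, with Benjamini-Hochberg adjustment within each card and a threshold of 0.05. The script was tested on simulated data. Other steps used Python 3.11.15. Precision is limited by 3 samples a group, and depth does not apply to Ct values.

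MiR-448 and the lists were chosen with earlier results of these data known. The miRNAs named were miR-448, the miRNAs of the Htr2c locus, miRNAs sharing its seed, cytokine-linked miRNAs, those detected in all samples of a group and none of the other, the 5 most like miR-448, the controls and cell type markers; miR-293, miR-320, miR-743b-5p and miR-217 were named after their values were seen. Sequences and positions are from RefSeq (GRCm38.p6).

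Deviations from the group means correlated between samples of the same replicate number at r = 0.53, 0.57 and 0.62 (48 h) and 0.34, 0.35 and 0.54 (24 h), across miRNAs, and so the numbers were taken to pair the samples there. Between αTC1-6 and βTC1 r was 0.28, 0.14 and 0.10.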

Additional observations from a re-analysis of the deposited data

How the results depend on the processing

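The mean 48 h difference of miR-448 moved by less than the SD between replicates under 11 of 12 alternatives. Of these 11, the replicate block could not change it, and the non-normalized table held the same Ct of miR-448 in every sample. All 11 kept the value entered for undetermined wells, so they cannot show whether the difference is a lower bound. The alternative that changed this value, with Ct values above 35 set to 35, gave 9.68. When each replicate was left out, the difference ranged from 13.71 to 15.57. At 24 h, and between αTC1-6 and βTC1, no alternative could give a value, as no sample had a Ct.

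The miRNAs that switched from undetermined to detected at 48 h numbered 3 to 6 when a replicate was left out (2 with all replicates), and 1 to 4 in the opposite direction, where 2 had a Ct under 35 in all untreated samples and in no treated sample. At 24 h, 1 to 3 and, in the opposite direction, 1 to 4 switched when a replicate was left out. With a Ct under 35 required, 2 switched in each direction at 24 h, and 3 rather than 1 became detected in the non-normalized table. Leaving out a sample requires fewer Ct values, which by itself admits more miRNAs.

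Limma called 3 miRNAs at 48 h, all 3 higher in the treated samples, 5 in a fit over all 15 samples and 0 to 5 without a replicate. The 534 miRNAs tested at 48 h include miR-448, which was chosen by its values there. Without any 1 of the treated replicates, miR-448 kept too few Ct values to be tested. Limma called 0 without treated replicate 2 or 3, where 44 and 37 had an unadjusted p under 0.05. It called 4 without treated replicate 1 and 5 without untreated replicate 1. It called 1 at 24 h, 2 in the fit over all 15 samples, 0 when a Ct was required in every sample, with Ct values capped at 35 or from the non-normalized table, and 0 to 2 without a replicate (0 without untreated replicate 2 or 3). For these counts of 0, 13 to 25 had an unadjusted p under 0.05. Between the lines it called 142, 81 with a Ct in every sample and 94 to 110 without a replicate.

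With the replicate number as a block, limma called 0 miRNAs at 48 h (121 at an unadjusted p under 0.05) and 0 at 24 h (47), and 115 between the lines, where the numbers did not pair the samples. The blocked mean difference of miR-448 was 14.68, which a block cannot change in balanced groups. The causes of these changes were not tested.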
